A study of Homo sapiens with 24 samples.

Results

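The insulin and insulin-like growth factor (IGF) axis was described through 10 genes in BT-474 cells, a cell line established from a human breast tumour. These cells express the estrogen receptor and carry an amplified ERBB2 gene, which encodes the receptor HER2. The genes were chosen by name, with earlier results of these arrays known. They are the receptors INSR and IGF1R, the docking proteins IRS1 and IRS2, the phosphoinositide 3-kinase (PI3K) regulators PIK3R1 and PIK3IP1, and the binding proteins IGFBP2, IGFBP3, IGFBP4 and IGFBP5. For each gene the probe set with the highest mean over all arrays was taken from those annotated to it alone, of which the 10 genes had 31. All 10 were among the 14335 genes that passed a filter on low levels, of 19775 genes with a probe set of their own.

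The 24 arrays fell into 8 groups of 3. Cells had received HER2 siRNA or control siRNA, and then estrogen at 10 nM or ethanol vehicle at 0.001% for 24 or 4 h, so both arms had been transfected and the controls carried a control siRNA. Values are log2 levels made by the authors with RMA, and a difference of 1 on this scale is a doubling of signal. The RNA came from whole cultures, so a change in signal per cell and a change in the share of cells that express a gene cannot be told apart. The source name of 1 array, replicate 3 of HER2 siRNA with estrogen at 4 h, gives 24 h where its other labels give 4 h, and it was kept at 4 h. The labels name replicates without saying what separated them, and the p-values measure the spread between these arrays, which may be technical.

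Insulin and the IGFs act through INSR and IGF1R, closely related receptor tyrosine kinases that phosphorylate IRS1 and IRS2. The phosphorylated IRS proteins recruit PI3K through its regulatory subunits, PIK3R1 among them, and PI3K in turn activates AKT. AKT keeps FOXO transcription factors out of the nucleus, and INSR and IRS2 are known as genes that FOXO factors induce. IGFBPs are secreted proteins that hold IGFs outside the cell, and in breast cancer cells IRS1, IGF1R, IGFBP4 and IGFBP5 are known to respond to estrogen.

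ERBB2, the siRNA's target, stood between 11.86 and 12.69 (median 12.33) on the 12 HER2 siRNA arrays and between 13.39 and 13.94 (median 13.60) on the 12 control siRNA arrays. Its averaged difference was -1.34 ± 0.06 (SE, adjusted p = 1.11e-14). The arms did not overlap, and 39.6% of the control level remained on average. By condition, 46.8% remained with estrogen and 39.4% with vehicle at 24 h, and 39.2% and 33.9% at 4 h. Estrogen at 24 h changed ERBB2 by -0.46 ± 0.11 with control siRNA (adjusted p = 0.0077) and by -0.21 ± 0.11 with HER2 siRNA (adjusted p = 0.383). All 9 luminal epithelial markers passed the filter, KRT8, KRT18, ESR1 and the siRNA's own target ERBB2 among them. Their mean level per array, lowered in part by ERBB2 itself, was 11.98 to 12.24 with HER2 siRNA and 12.14 to 12.44 with control siRNA. Of these 9, GATA3 and CDH1 were higher with HER2 siRNA and 4 were lower, ERBB2 included. The same mean was 5.27 to 5.47 with HER2 siRNA and 5.29 to 5.43 with control siRNA for 6 fibroblast markers, 4.25 to 4.72 and 4.21 to 4.48 for 5 leukocyte markers, and 4.86 to 5.21 and 5.05 to 5.26 for 4 endothelial markers. Of these lists, 3 fibroblast markers (COL1A1, COL1A2 and DCN), 2 leukocyte markers (CD3E and LYZ) and 2 endothelial markers (PECAM1 and VWF) passed the filter. The others stayed below it, COL3A1, PTPRC and CDH5 among them. COL1A1 (9.76 ± 0.18 with HER2 siRNA, 9.41 ± 0.24 with control siRNA, SD, n = 12 each) and LYZ were higher with HER2 siRNA and VWF was lower, and the part of these markers in the results was not tested. RNA integrity was read from GAPDH, as the level of its 3' control probe set minus that of its 5' one, which was 0.443 ± 0.060 with HER2 siRNA and 0.305 ± 0.066 with control siRNA (SD, n = 12 each, 2-sided permutation p = 0.00014, 0.00028 adjusted over GAPDH and ACTB). The same measure for ACTB was 1.398 ± 0.333 and 1.165 ± 0.294 (SD, n = 12 each, 2-sided permutation p = 0.0776).

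HER2 siRNA raised both receptors, the docking protein IRS2 and the PI3K inhibitor PIK3IP1 in every condition. Averaged over the 4 conditions, 8 of the 10 genes passed the threshold of an adjusted p of 0.05, where 59.2% of all genes tested did. INSR, IGF1R, IRS1, IRS2, PIK3IP1 and IGFBP5 were the 6 that rose, against 30.1% of all genes, and PIK3R1 and IGFBP4 were the 2 that fell, against 29.1%. The median difference was 0.47 over the 10 genes and about 0 (-2.3e-06) over all genes tested. By condition, 5 of the 10 genes passed with estrogen at 24 h (42% of all genes), 5 with estrogen at 4 h (34.1%), 7 in vehicle cells at 24 h (41.5%) and 7 in vehicle cells at 4 h (34.2%). INSR, IRS2 and PIK3IP1 had no overlap between the 12 arrays of each arm, as did 15.8% of all genes, 7.16% with the HER2 siRNA arm higher.

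**Figure D1:**
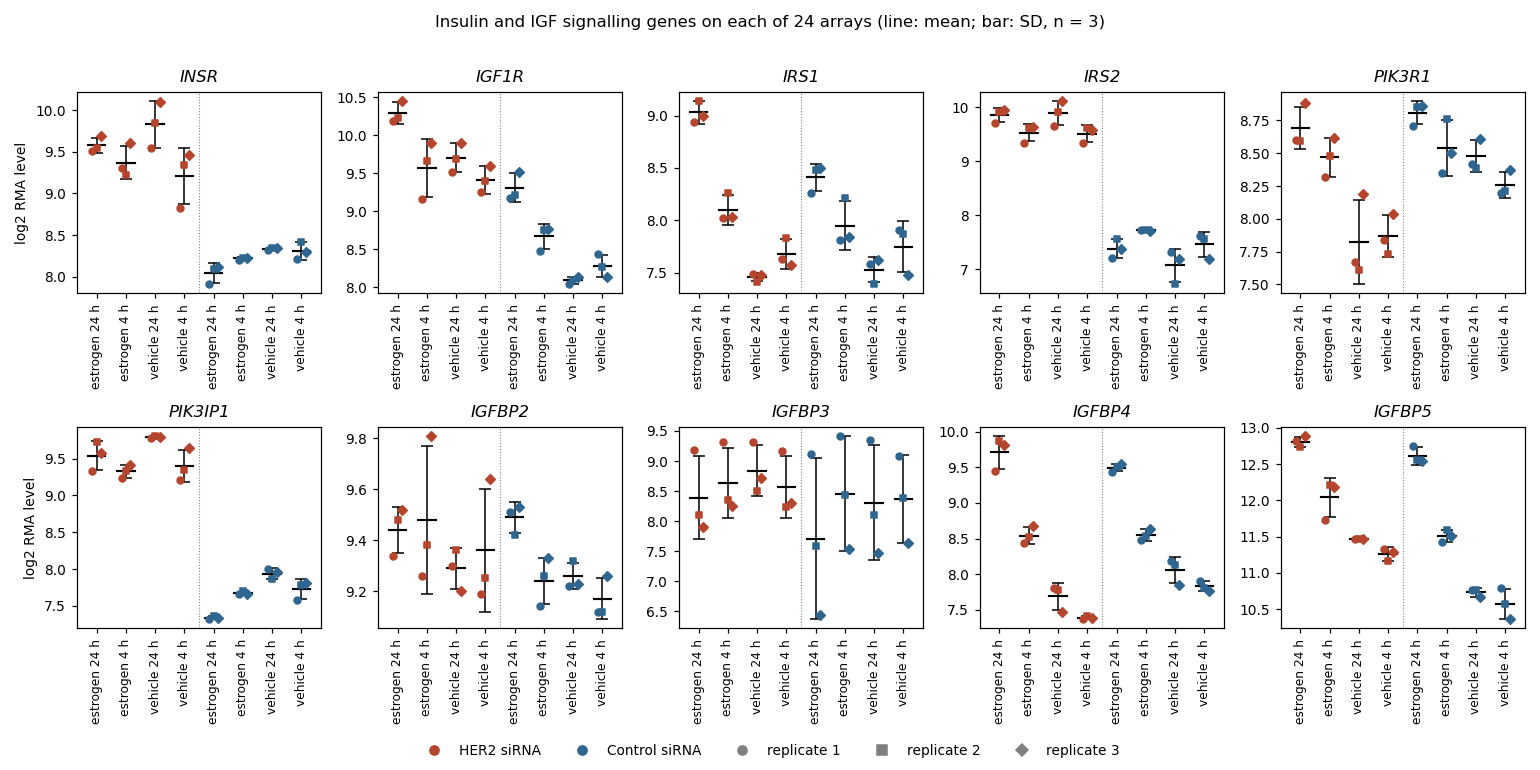
Log2 RMA level of each of the 10 genes on all 24 arrays, by group, with HER2 siRNA groups in red left of the dotted line and control siRNA groups in blue right of it. Symbols mark the replicate number, lines the mean and bars the SD of 3 arrays. The HER2 siRNA arrays of INSR, IRS2 and PIK3IP1 all lie above the control siRNA arrays, and replicate 1 of IGFBP3 is the highest in all 8 groups.

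INSR, the insulin receptor, ranged from 8.82 to 10.10 (median 9.53) with HER2 siRNA and from 7.91 to 8.42 (median 8.23) with control siRNA. With vehicle at 24 h its levels were 9.55, 9.84 and 10.10 with HER2 siRNA, against 8.32, 8.34 and 8.34 with control siRNA. With vehicle at 4 h they were 8.82, 9.34 and 9.46 with HER2 siRNA, against 8.21, 8.42 and 8.30 with control siRNA. The arms were apart at both times, by a narrower gap at 4 h. The averaged difference was 1.27 ± 0.07 (adjusted p = 7.65e-13, 2.41-fold), with 1.54 ± 0.14 for estrogen and 1.49 ± 0.14 for vehicle at 24 h, and 1.15 ± 0.14 for estrogen and 0.89 ± 0.14 for vehicle at 4 h. The change of this effect between times was 0.49 ± 0.14 (adjusted p = 0.0567), short of the threshold, with adjusted p from 0.0110 to 0.147 over the alternatives other than single arrays left out.

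IGF1R, the IGF receptor, rose with HER2 siRNA in each condition although its arms overlapped. With estrogen at 24 h it stood at 10.19, 10.23 and 10.45 with HER2 siRNA, against 9.18, 9.21 and 9.52 with control siRNA. With vehicle at 24 h the levels were 9.52, 9.69 and 9.90 with HER2 siRNA, against 8.04, 8.09 and 8.14 with control siRNA. The overlap lay between conditions, since control siRNA arrays with estrogen at 24 h reached the range of HER2 siRNA arrays without it. The averaged difference was 1.16 ± 0.08 (adjusted p = 1.32e-11, 2.23-fold). At 24 h it was 0.99 ± 0.15 for estrogen and 1.61 ± 0.15 for vehicle, and at 4 h it was 0.90 ± 0.15 for estrogen and 1.13 ± 0.15 for vehicle.

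IRS2, a docking protein that couples both receptors to PI3K, had the largest difference of the 10 genes. With estrogen at 24 h its levels were 9.70, 9.92 and 9.95 with HER2 siRNA, against 7.2, 7.56 and 7.38 with control siRNA. With vehicle at 24 h they were 9.66, 9.92 and 10.11 with HER2 siRNA, against 7.31, 6.72 and 7.18 with control siRNA. No HER2 siRNA array fell in the control range, whose highest value over all conditions was 7.72. With estrogen at 4 h the levels were 9.34, 9.62 and 9.63 with HER2 siRNA, against 7.72, 7.72 and 7.71 with control siRNA. With vehicle at 4 h they were 9.33, 9.62 and 9.58 with HER2 siRNA, against 7.62, 7.56 and 7.19 with control siRNA. The lowest HER2 siRNA array of all stood at 9.33. The averaged difference was 2.29 ± 0.07 (adjusted p = 2.89e-16), a 4.90-fold rise that ranked 17 of 14335 genes by size. In single conditions it was 2.47 ± 0.15 for estrogen 24 h, 2.83 ± 0.15 for vehicle 24 h, 1.81 ± 0.15 for estrogen 4 h and 2.06 ± 0.15 for vehicle 4 h, each past the threshold. The siRNA effect was larger at 24 h than at 4 h by 0.71 ± 0.15 (adjusted p = 0.0110), a difference that 2.95% of all genes passed.

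PIK3IP1, a transmembrane protein that binds the catalytic subunit of PI3K and inhibits it, ranged from 9.21 to 9.81 (median 9.50) with HER2 siRNA and from 7.32 to 8.0 (median 7.68) with control siRNA. With estrogen at 24 h, where the gap was widest, its levels were 9.33, 9.73 and 9.58 with HER2 siRNA, against 7.32, 7.36 and 7.34 with control siRNA. The 3 control siRNA arrays of that condition were also the lowest of all 24. The averaged difference was 1.85 ± 0.05 (adjusted p = 3.75e-17, 3.60-fold). At 24 h it was 2.20 ± 0.10 for estrogen and 1.85 ± 0.10 for vehicle, and at 4 h it was 1.66 ± 0.10 for estrogen and 1.67 ± 0.10 for vehicle. The change between times was 0.36 ± 0.10 (adjusted p = 0.0540), short of the threshold. Its second brightest probe set gave a smaller averaged difference of 1.03 ± 0.05, also past the threshold, with 0.98 to 1.07 in the 4 conditions. On that probe set the change between times was 0.05 ± 0.10 (adjusted p = 0.854).

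**Figure D2:**
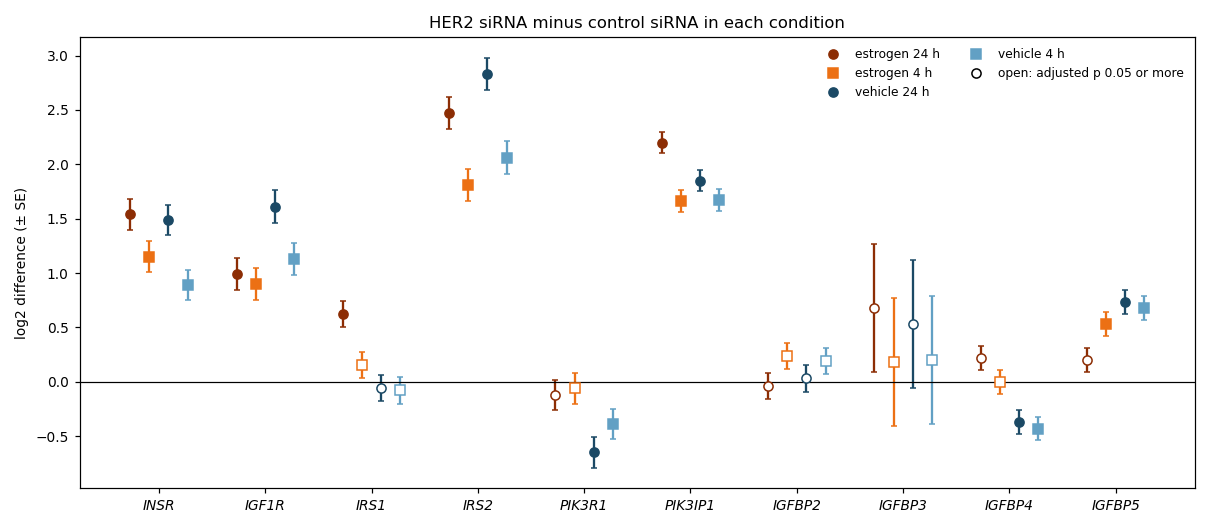
Log2 difference of HER2 siRNA minus control siRNA (vertical axis, with SE) for each of the 10 genes in the 4 conditions; filled symbols passed an adjusted p of 0.05. IRS2, PIK3IP1, INSR and IGF1R are at 0.89 or more in each condition, while PIK3R1 and IGFBP4 are below 0 past the threshold with vehicle alone.

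PIK3R1 and IRS1 had averaged differences of a size under 0.5, with calls in some conditions and not in others. PIK3R1, the regulatory subunit that docks PI3K on IRS proteins, fell by 0.31 ± 0.07 (difference -0.31, adjusted p = 0.000496). Its levels with vehicle at 24 h were 7.67, 7.61 and 8.19 with HER2 siRNA, against 8.42, 8.39 and 8.61 with control siRNA. With estrogen the differences were -0.12 ± 0.14 at 24 h and -0.06 ± 0.14 at 4 h (adjusted p = 0.540 and 0.775). With vehicle they were -0.65 ± 0.14 at 24 h and -0.39 ± 0.14 at 4 h (adjusted p = 0.000523 and 0.0309), and the call at 4 h ended without any 1 of 4 of its 6 arrays (highest adjusted p 0.119). The second brightest probe set of PIK3R1 fell in all 4 conditions, with an averaged difference of -0.72 ± 0.06, so the size of the change depended on the probe set.

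IRS1, the other docking protein, differed by 0.16 ± 0.06 on average (adjusted p = 0.0301). On this brightest probe set, estrogen at 24 h was the condition in which it passed. There it stood at 8.94, 9.14 and 9.0 with HER2 siRNA, against 8.26, 8.48 and 8.50 with control siRNA, a rise of 0.62 ± 0.12 (adjusted p = 0.000267). Its difference was 0.15 ± 0.12 for estrogen 4 h, -0.06 ± 0.12 for vehicle 24 h and -0.08 ± 0.12 for vehicle 4 h, none past the threshold. The averaged call ended without any of 8 single arrays (the highest adjusted p was 0.0651).

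When the GAPDH measure of RNA integrity entered the model as a covariate, the averaged calls of INSR (1.24 ± 0.12), IGF1R (1.16 ± 0.13), IRS2 (2.22 ± 0.12), PIK3IP1 (1.85 ± 0.08) and IGFBP5 (0.51 ± 0.09) remained. Those of IRS1 (-0.01 ± 0.09, adjusted p = 0.939), PIK3R1 (-0.22 ± 0.11, adjusted p = 0.120) and IGFBP4 (-0.21 ± 0.09, adjusted p = 0.0568) ended.

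The promoter windows of the 3 genes whose arms did not overlap are shown because INSR, IRS2 and PIK3IP1 moved together. Over the 8 group means PIK3IP1 had a Pearson r of 0.99 with INSR and 0.97 with IRS2, and INSR had 0.97 with IRS2, a description over groups that share a design. The sequences are from RefSeq (GRCh38.p14), from 250 bases before the transcription start through the first 30 bases from it on, with the start base counted as 1. They are given 5′ to 3′ on the gene's strand, which is the minus strand for all of them. INSR lies at chr19:7294385-7294664, IRS2 at chr13:109786554-109786833 and PIK3IP1, at the second of its start sites in the table, at chr22:31292459-31292738. Capitals mark a match, on either strand, to the FOXO site GTAAACA, the single arm GGTCA of an estrogen response element or the E2F site TTTCCCGC.
INSR: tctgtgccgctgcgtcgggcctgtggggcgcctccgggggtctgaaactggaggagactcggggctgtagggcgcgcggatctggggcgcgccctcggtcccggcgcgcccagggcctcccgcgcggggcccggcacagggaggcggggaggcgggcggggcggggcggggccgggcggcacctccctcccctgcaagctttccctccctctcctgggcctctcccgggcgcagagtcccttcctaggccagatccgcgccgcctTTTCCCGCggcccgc
IRS2: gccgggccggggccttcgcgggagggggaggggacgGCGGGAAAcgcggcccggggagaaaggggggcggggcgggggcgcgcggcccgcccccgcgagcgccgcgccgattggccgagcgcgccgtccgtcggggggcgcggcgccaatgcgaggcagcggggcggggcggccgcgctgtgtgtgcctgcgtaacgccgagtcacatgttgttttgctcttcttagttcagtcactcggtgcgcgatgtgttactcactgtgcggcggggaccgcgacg
PIK3IP1: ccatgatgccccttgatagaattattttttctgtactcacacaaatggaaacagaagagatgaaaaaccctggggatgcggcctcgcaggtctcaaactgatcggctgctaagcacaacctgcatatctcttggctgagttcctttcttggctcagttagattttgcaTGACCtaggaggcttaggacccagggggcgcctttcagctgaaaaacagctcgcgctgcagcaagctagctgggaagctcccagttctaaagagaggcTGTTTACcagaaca

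The printed window of PIK3IP1 held the FOXO site as TGTTTAC at positions 17 to 23, and 1 single arm as TGACC at positions -82 to -78. The window at the other start site of PIK3IP1, not printed, held no FOXO match, so the match depends on the start site taken. The FOXO letters occur in 3.42% of 35116 promoter windows of 300 bases in the same table, and in 1 of the 16 windows of the 10 genes. INSR held the E2F letters at positions 16 to 23, and IRS2 held them as GCGGGAAA at positions -214 to -207. The E2F letters occur in 1.63% of all windows and in 2 of the 16. The single arm occurs in 37.4% of all windows and in 4 of the 16, which belong to PIK3IP1, IGFBP2 and IGFBP3, and the full estrogen response element in 0.057% and in none of the 16. The windows of PIK3IP1 overlap, and the single arm in them is the same copy. The GC box GGGCGG, added after the sequences were seen, occurs in 45% of all windows and in 10 of the 16, which belong to 8 genes. There were 5 in IRS2 and as many in the first window of PIK3R1, and 4 each in INSR and IRS1. These are matches of letters, and no binding was measured.

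On the probe set taken for each gene, estrogen raised the binding proteins IGFBP5 and IGFBP4 at both times and in both siRNA arms. At 24 h, 5 of the 10 genes passed with HER2 siRNA and 5 with control siRNA, where 6.17% and 13.5% of all genes did. At 4 h, 3 passed with HER2 siRNA and 2 with control siRNA, where 0.698% and 0.342% of all genes did. All of these rose except PIK3IP1 with control siRNA at 24 h. Of all genes, 4.28% rose with HER2 siRNA and 7.01% with control siRNA at 24 h, 6.52% fell with control siRNA at 24 h, and 0.663% rose with HER2 siRNA and 0.335% with control siRNA at 4 h. The median difference of the 10 genes was 0.37 with HER2 siRNA and 0.32 with control siRNA at 24 h, against -0.00319 and -0.00987 over all genes tested. At 4 h it was 0.16 with HER2 siRNA and 0.23 with control siRNA, against 0.0161 and 0.00575 over all genes.

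IGFBP5, a secreted binding protein held in the matrix as well as in solution, had the highest signal of the 10 probe sets, which does not rank the genes by abundance. With HER2 siRNA at 24 h it stood at 12.82, 12.74 and 12.89 with estrogen, against 11.46, 11.47 and 11.46 with vehicle. With control siRNA at 24 h it stood at 12.75, 12.55 and 12.54 with estrogen, against 10.77, 10.76 and 10.67 with vehicle. The arms overlapped with estrogen and were apart with vehicle. The estrogen difference was 1.35 ± 0.11 with HER2 siRNA (adjusted p = 2.56e-08) and 1.88 ± 0.11 with control siRNA (adjusted p = 5.26e-10), and their difference of -0.53 ± 0.16 did not pass (adjusted p = 0.398). At 4 h the levels were 11.73, 12.21 and 12.18 with estrogen and 11.33, 11.16 and 11.29 with vehicle in HER2 siRNA cells. In control siRNA cells they were 11.42, 11.59 and 11.51 with estrogen and 10.79, 10.57 and 10.36 with vehicle. Estrogen and vehicle arrays did not overlap in either arm, with differences of 0.78 ± 0.11 (HER2 siRNA, adjusted p = 0.000374) and 0.93 ± 0.11 (control siRNA, adjusted p = 6.18e-05). The first of these ended when only the 2 groups compared were fitted (adjusted p = 0.102). The estrogen effect was larger at 24 h than at 4 h by 0.95 ± 0.16 with control siRNA (adjusted p = 0.00410), as it was in either direction for 1.28% of all genes. With HER2 siRNA the change was 0.57 ± 0.16 (adjusted p = 0.129), and 0.91 over the mean of its probe sets (adjusted p = 0.0002).

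HER2 siRNA also raised IGFBP5, by 0.54 ± 0.06 on average (adjusted p = 2.39e-08). The difference was 0.20 ± 0.11 for estrogen 24 h (adjusted p = 0.160), and 0.73 ± 0.11 for vehicle 24 h, 0.53 ± 0.11 for estrogen 4 h and 0.68 ± 0.11 for vehicle 4 h, each of these 3 past the threshold. Its 6 probe sets all gave a higher averaged level with HER2 siRNA, from 0.22 to 0.59. With estrogen at 24 h, 3 of the dimmer ones passed, with differences of 0.60, 0.43 and 0.60 (adjusted p = 0.000678, 0.000975 and 0.000198 over all probe sets). With its second brightest probe set the estrogen call at 4 h with control siRNA (0.87, adjusted p = 0.208), the siRNA call with vehicle at 24 h (0.29, adjusted p = 0.346) and the change of the estrogen effect with time (1.18, adjusted p = 0.0994) ended. For estrogen at 4 h with control siRNA, a dimmer probe set passed (0.71, adjusted p = 0.0124 over all probe sets). The dimmest ones did not (0.37, 0.13 and 0.42). With HER2 siRNA at 4 h, the probe sets that gave 0.14 and 0.31 did not pass (adjusted p = 0.849 and 0.718), and the others did.

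IGFBP4, a binding protein known to inhibit IGF action, rose in all 4 estrogen comparisons. Its levels in HER2 siRNA cells at 24 h were 9.44, 9.87 and 9.81 with estrogen, against 7.81, 7.78 and 7.47 with vehicle. In control siRNA cells at 24 h they were 9.43, 9.50 and 9.54 with estrogen, against 8.19, 8.13 and 7.85 with vehicle. Levels with estrogen overlapped between the arms while those with vehicle were lower in HER2 siRNA cells. The difference was 2.02 ± 0.11 with HER2 siRNA (adjusted p = 1.03e-10, 4.05-fold) and 1.43 ± 0.11 with control siRNA (adjusted p = 2.04e-08, 2.70-fold). At 4 h the levels were 8.44, 8.52 and 8.67 with estrogen and 7.37, 7.41 and 7.39 with vehicle in HER2 siRNA cells, and 8.48, 8.53 and 8.64 with estrogen and 7.90, 7.81 and 7.76 with vehicle in control siRNA cells. These gave 1.15 ± 0.11 (adjusted p = 1.23e-06) and 0.72 ± 0.11 (adjusted p = 0.00137). The estrogen effect grew with time by 0.87 ± 0.16 with HER2 siRNA (adjusted p = 0.00718) and by 0.71 ± 0.16 with control siRNA (adjusted p = 0.0212). The first call ended when only the groups compared were fitted (adjusted p = 0.0931), and the second when any of 5 single arrays was dropped, with 0.0676 as the highest adjusted p.

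The siRNA difference of IGFBP4 with estrogen was 0.22 ± 0.11 at 24 h and 0.00 ± 0.11 at 4 h (adjusted p = 0.127 and 0.987), and 0.35 at 24 h without HER2 siRNA replicate 1 (adjusted p = 0.0136). With vehicle it was -0.37 ± 0.11 at 24 h and -0.43 ± 0.11 at 4 h (adjusted p = 0.00965 and 0.00382). The averaged difference was -0.15 ± 0.05 (adjusted p = 0.0248), and this call ended without any of 3 single arrays (highest adjusted p 0.0539). The call with vehicle at 24 h ended without control siRNA replicate 1 (adjusted p = 0.0578) and without HER2 siRNA replicate 3 (adjusted p = 0.0783) of that condition. IGFBP4 lies on chromosome 17 as ERBB2 does, with 20 protein-coding genes between them in the annotation. Its 1 probe set allowed no check on a second.

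IRS1 and IGF1R rose with estrogen at 24 h. IRS1 stood at 8.94, 9.14 and 9.0 with estrogen and 7.49, 7.41 and 7.48 with vehicle in HER2 siRNA cells, a difference of 1.56 ± 0.12 (adjusted p = 1.07e-08). In control siRNA cells it stood at 8.26, 8.48 and 8.50 with estrogen and 7.58, 7.39 and 7.62 with vehicle, a difference of 0.88 ± 0.12 (adjusted p = 3.32e-05). Neither arm overlapped, and at 4 h the differences of 0.43 ± 0.12 and 0.20 ± 0.12 did not pass. The effect grew with time by 1.14 ± 0.17 with HER2 siRNA (adjusted p = 0.00172), where 0.516% of all genes passed. With control siRNA the change was 0.68 ± 0.17 (adjusted p = 0.0510), short of the threshold. The change with HER2 siRNA was 0.75 on the second brightest probe set (adjusted p = 0.147).

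For IGF1R the estrogen difference at 24 h was 0.59 ± 0.15 with HER2 siRNA (adjusted p = 0.0190) and 1.22 ± 0.15 with control siRNA (adjusted p = 1.01e-05), from the levels given above. The first call ended without HER2 siRNA vehicle 24 h replicate 1 (adjusted p = 0.101) or replicate 2 (0.061), or without HER2 siRNA estrogen 24 h replicate 3 (0.113). IGF1R differed at 4 h by 0.16 ± 0.15 with HER2 siRNA and 0.38 ± 0.15 with control siRNA, neither past the threshold. PIK3R1 rose with estrogen in HER2 siRNA cells, by 0.87 ± 0.14 at 24 h (adjusted p = 0.000205) and 0.61 ± 0.14 at 4 h (adjusted p = 0.0339), and differed by 0.33 ± 0.14 and 0.28 ± 0.14 in control siRNA cells (adjusted p = 0.117 and 1). The call at 4 h ended without any 1 of 4 of its 6 arrays (highest adjusted p 0.237) and on the second brightest probe set (0.42, adjusted p = 0.181).

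**Figure D3:**
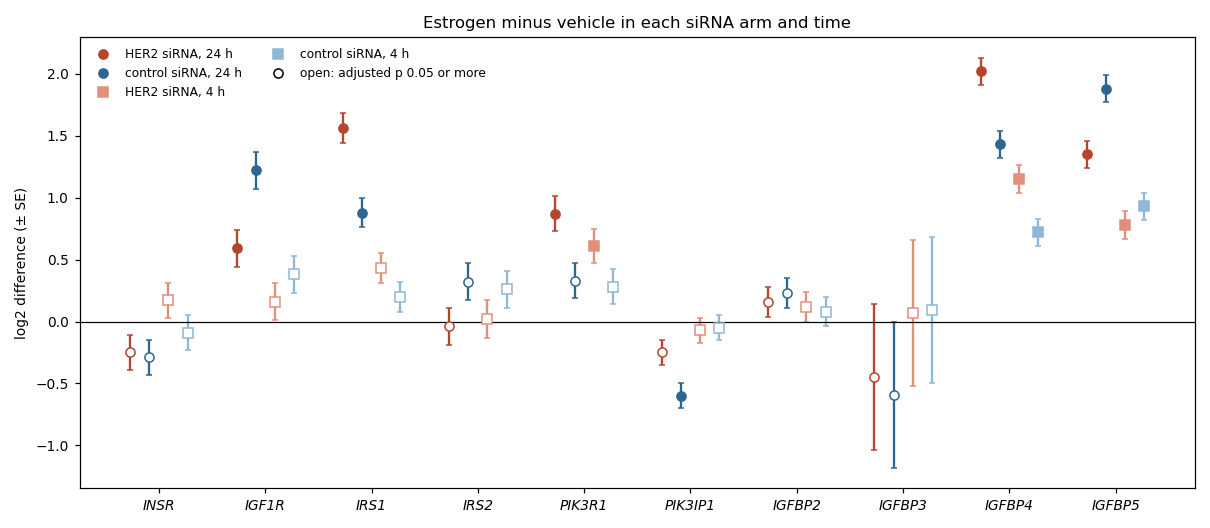
Log2 difference of estrogen minus vehicle (vertical axis, with SE) for each of the 10 genes, with HER2 siRNA left of control siRNA at 24 h (circles) and 4 h (squares); filled symbols passed an adjusted p of 0.05. IGFBP4 and IGFBP5 passed in all 4 comparisons, and PIK3IP1 is the gene that fell, with control siRNA at 24 h.

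IRS2 and INSR did not pass for estrogen in any of the 4 comparisons. IRS2 differed by -0.04 ± 0.15 with HER2 siRNA (95% confidence interval -0.34 to 0.27) and 0.32 ± 0.15 with control siRNA (0.01 to 0.62) at 24 h. INSR differed by -0.25 ± 0.14 (-0.54 to 0.04) and -0.29 ± 0.14 (-0.58 to 0.00) in the same order. PIK3IP1 differed by -0.25 ± 0.10 with HER2 siRNA (adjusted p = 0.191) and fell by 0.60 ± 0.10 with control siRNA (difference -0.60, adjusted p = 0.000336). On its second brightest probe set the difference with control siRNA was -0.15 (adjusted p = 0.406), which ended that call.

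None of the 10 genes passed for a difference of the estrogen effect between the siRNA arms. At 24 h 9 of all genes passed (0.0628%). An unadjusted p under 0.05 was reached by 6 of the 10 and by 866 of the 14335 genes tested. At 4 h no gene passed by limma (0% of all genes), with 403 genes at an unadjusted p under 0.05, IGFBP4 among them. The widest differences at 24 h, HER2 siRNA minus control siRNA, were 0.68 ± 0.17 for IRS1 (adjusted p = 0.239), -0.63 ± 0.21 for IGF1R (adjusted p = 0.539), 0.58 ± 0.16 for IGFBP4 (adjusted p = 0.276), -0.53 ± 0.16 for IGFBP5 (adjusted p = 0.398) and 0.53 ± 0.19 for PIK3R1 (adjusted p = 0.598). The value for IGFBP5 is that of its brightest probe set, and its other 5 gave -0.15 to 0.26. Averaged over both times, a comparison added after these values were seen, again none of the 10 passed, where 0.0419% of all genes did. Here 5 of the 10 and 703 of all genes had an unadjusted p under 0.05. IGFBP4 differed by 0.51 ± 0.11 (adjusted p = 0.211, unadjusted 0.000147), and passed without HER2 siRNA estrogen 24 h replicate 1 (0.57, adjusted p = 0.0205).

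IGFBP2 and IGFBP3 did not pass in any of the comparisons in the model with group means alone. IGFBP2, a binding protein whose gene neighbours IGFBP5 on chromosome 2 with no protein-coding gene between them, ranged from 9.19 to 9.81 with HER2 siRNA and from 9.12 to 9.53 with control siRNA. Its averaged siRNA difference was 0.11 ± 0.06 (95% confidence interval -0.02 to 0.23), and its estrogen difference at 24 h was 0.16 ± 0.12 with HER2 siRNA and 0.23 ± 0.12 with control siRNA. Without HER2 siRNA estrogen 4 h replicate 1 the averaged siRNA difference was 0.13 (adjusted p = 0.0494), and the difference with estrogen at 4 h was 0.35 (adjusted p = 0.0334), against 0.24 ± 0.12 with that array.

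IGFBP3, the main IGF carrier in blood, varied between arrays of the same group more than the other 9 genes did. Replicate 1 was its highest array in all 8 groups, at 9.09 to 9.42, while replicate 2 ranged from 7.58 to 8.50 and replicate 3 from 6.44 to 8.71. Its SD within a group was 0.42 to 1.34, and no other of the 10 genes had replicate 1 highest in more than 4 groups, though replicate 3 of IGF1R and of PIK3R1 was highest in 7. The averaged siRNA difference was 0.40 ± 0.29 (95% confidence interval -0.21 to 1.01) and the estrogen difference with control siRNA at 24 h was -0.59 ± 0.59. The former passed when the replicate number entered as a block, an alternative given below. The labels of 3 replicate 1 arrays carry a running number apart from the other 21. These were control siRNA with vehicle and with estrogen at 24 h, and HER2 siRNA with estrogen at 4 h. Without them the averaged siRNA difference was 0.62 (adjusted p = 0.0412) and that with estrogen at 24 h was 1.38 (adjusted p = 0.0396), against 0.68 ± 0.59 with them. The latter comparison lost the 9.11 of control siRNA and kept the 9.18 of HER2 siRNA, each the highest of its group. That loss alone widens the difference.

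Over time with no hormone, INSR rose at 24 h against 4 h in HER2 siRNA cells by 0.62 ± 0.14 (adjusted p = 0.0112) and PIK3IP1 rose by 0.39 ± 0.10 (adjusted p = 0.0230), where 6.46% of all genes passed. Both calls ended without HER2 siRNA vehicle 4 h replicate 1 (adjusted p = 0.0951 and 0.178), without HER2 siRNA vehicle 24 h replicate 3 (0.0679 and 0.0653) and on the second brightest probe sets. In control siRNA cells with vehicle none of the 10 genes passed by limma, where 0.781% of all genes did (112 genes, and 6 without control siRNA vehicle 24 h replicate 3). An unadjusted p under 0.05 was reached by 3 of the 10 and by 2058 of the 14335 genes tested. The widest difference of the 10 was -0.39 ± 0.15 for IRS2. With estrogen, IGF1R, IRS1, IGFBP4 and IGFBP5 were higher at 24 h than at 4 h in both arms, where 6.21% of all genes passed with HER2 siRNA and 5.96% with control siRNA. IGFBP4 rose most with HER2 siRNA, by 1.16 ± 0.11, and IGFBP5 with control siRNA, by 1.11 ± 0.11. The calls of IGF1R (0.64 ± 0.15) and IRS1 (0.46 ± 0.12) with control siRNA ended without control siRNA estrogen 24 h replicate 3 (adjusted p = 0.0985 and 0.127) or control siRNA estrogen 4 h replicate 1 (0.0801 and 0.132), and that of IRS1 without 2 other arrays (0.104 and 0.105).

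The change of an effect between times did not pass for the members not yet given. For the siRNA effect, 24 h minus 4 h, it was 0.28 ± 0.15 for IGF1R (adjusted p = 0.368) and 0.24 ± 0.12 for IRS1 (adjusted p = 0.330), and it lay between -0.22 ± 0.12 (IGFBP2) and 0.42 ± 0.59 (IGFBP3) for the others. For the estrogen effect on IGF1R it was 0.43 ± 0.21 with HER2 siRNA (adjusted p = 0.637) and 0.83 ± 0.21 with control siRNA (adjusted p = 0.0569). For that on PIK3IP1 it was -0.18 ± 0.14 with HER2 siRNA (adjusted p = 0.857) and -0.54 ± 0.14 with control siRNA (adjusted p = 0.0653). INSR had -0.42 ± 0.20 with HER2 siRNA and -0.20 ± 0.20 with control siRNA, and IRS2 had -0.06 ± 0.21 and 0.06 ± 0.21 in these arms.

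Other probe sets of the genes mostly gave the same direction for the siRNA effect. All 5 probe sets of INSR, 3 of PIK3IP1 and 2 of IRS2 gave a higher averaged level with HER2 siRNA, past the threshold over all probe sets. Of 5 for IGF1R, the 3 brightest rose, by 0.92 to 1.25, and the other 2 lay below the filter. The 2 dimmer probe sets of IRS1, both with a mean level of 6.02, gave 0.31 ± 0.07 and 0.87 ± 0.11, more than the 0.16 of the brightest. The first of them passed with estrogen at 24 h alone (0.78). The second passed there (1.48), with estrogen at 4 h (0.77, adjusted p = 0.0127) and with vehicle at 24 h (0.66, adjusted p = 0.0264).

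**Figure D4:**
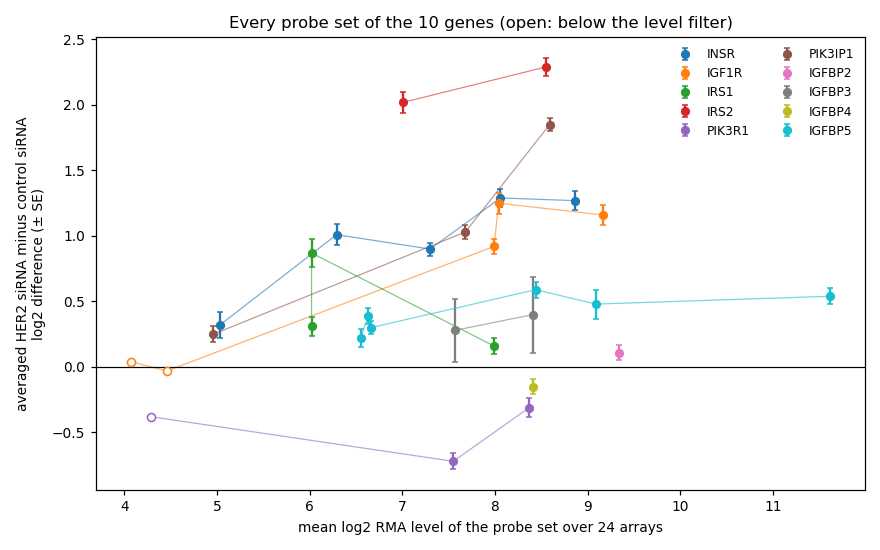
Averaged HER2 siRNA minus control siRNA difference (vertical axis, log2, with SE) of each of the 31 probe sets of the 10 genes against its mean log2 level (horizontal axis); open symbols lie below the level filter and lines join probe sets of a gene. PIK3IP1 falls to 1.03 on its second brightest probe set, against 1.85 on its brightest, while IRS2 has 2.02 and 2.29.

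Around these 10 genes, 64 others of the insulin and IGF pathway were listed, and 55 were tested. Averaged over conditions, 18 of the 55 rose and 16 fell with HER2 siRNA, and 21 did not pass, shares close to the 30.1% and 29.1% of all genes that rose and fell. Their median difference was 0.06, against about 0 over all genes. The 4 with the smallest adjusted p were PIK3R3, another regulatory subunit of PI3K (-1.03 ± 0.05, adjusted p = 3.29e-14), SOCS2, an inhibitor of cytokine and growth hormone signalling (1.32 ± 0.06, adjusted p = 4.48e-14), and the transcription factors FOXO1 (1.44 ± 0.09, adjusted p = 4.34e-12) and FOXO3 (0.85 ± 0.05, adjusted p = 6.61e-12). By group, 3 of 4 FOXO genes rose and 1 fell, and 5 of 10 other adaptors rose and 1 fell. Of 3 tested PI3K subunits 2 fell, of 12 phosphatases and SOCS inhibitors 2 rose and 4 fell, and of 16 genes of the AKT and mTOR group 6 rose and 5 fell. Of 7 other binding proteins and proteases 1 rose and 2 fell, and of 2 other receptors 1 fell. STC1, IRS4 and GRB14 reached the filter level of 5 on fewer than 3 arrays of one arm, so they were tested through the other arm, and these counts hold 2 of them as risen and 1 as fallen. The ligand IGF1 differed by 0.15 ± 0.06 (adjusted p = 0.0424), while the probe set of insulin itself lay below the filter.

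**Figure D5:**
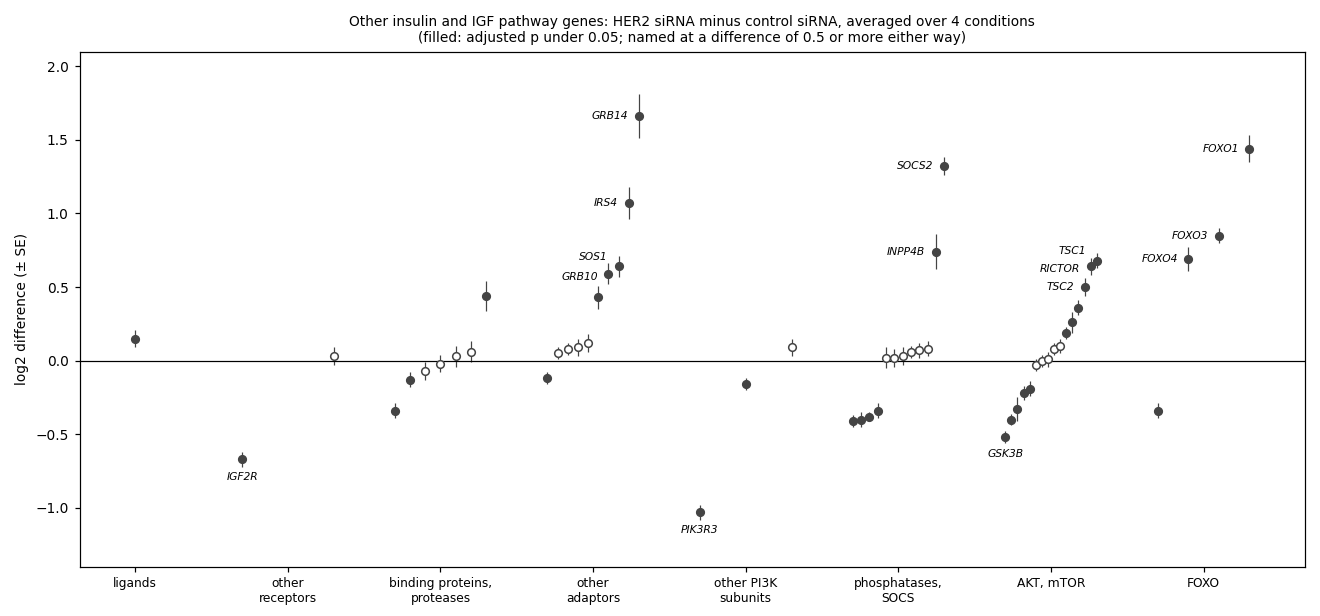
Averaged HER2 siRNA minus control siRNA difference (vertical axis, log2, with SE) of the 55 other pathway genes tested, by group; filled symbols passed an adjusted p of 0.05, and genes at 0.5 or more either way are named by that size, seen in these data. Genes rise and fall in most groups, with PIK3R3 at -1.03 and FOXO1 at 1.44, while GRB14 at 1.66 is set against control siRNA arrays that all lie below the filter level.

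For the change of the siRNA effect between times, 3 of the 55 passed with a more positive effect at 24 h and 2 with a more negative one, where 2.95% of all genes passed. Among them was PIK3R3 (-0.52 ± 0.09, adjusted p = 0.00385). GRB14, an adaptor that inhibits the insulin receptor, also passed (1.53 ± 0.30, adjusted p = 0.00760), but it ranged from 3.93 to 7.67 with HER2 siRNA and from 3.33 to 4.12 with control siRNA. None of its 12 control siRNA arrays reached the filter level of 5, and the size of its differences is read against that arm. With estrogen at 24 h, 4 of the 55 rose and 1 fell with HER2 siRNA, where 6.17% of all genes passed, and 4 rose and 3 fell with control siRNA, where 13.5% did. DEPTOR, an inhibitory partner of the mTOR kinase, rose by 2.34 ± 0.14 with HER2 siRNA (adjusted p = 4.64e-10) and 1.60 ± 0.14 with control siRNA (adjusted p = 1.67e-07). CISH, a SOCS family inhibitor, rose by 1.26 ± 0.11 with HER2 siRNA and 0.90 ± 0.11 with control siRNA. SOCS2 differed by -0.26 ± 0.12 with HER2 siRNA (adjusted p = 0.283) and fell by 0.93 ± 0.12 with control siRNA (difference -0.93, adjusted p = 2.04e-05). STC2, a secreted inhibitor of the protease that cleaves IGFBP4, rose by 3.19 ± 0.21 with HER2 siRNA at 24 h (adjusted p = 1.01e-09). Its estrogen effect was larger there than with control siRNA by 2.77 ± 0.29 (adjusted p = 7.66e-05), and it was the 1 gene of the 55 to pass for that difference, where 0.0628% of all genes did.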

How the data were processed

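Total RNA of BT-474 cells was measured on 24 Affymetrix HG-U133 Plus 2.0 arrays. The deposited values are log2 levels made by the authors with RMA, per the submitters' processing notes, which give no version. Of 54675 probe sets, 41097 were annotated to 1 gene symbol, 1801 to several and 11721 to none, and 62 were controls, of which those for ACTB and GAPDH also carry their symbol. Each of 19775 genes was read from its brightest probe set of its own, with symbols updated through Entrez IDs, and 14335 with a level of at least 5 in at least 3 arrays were tested. One limma 3.58.1 model (R 4.3.3) with a mean per group was fitted over all arrays, with eBayes and Benjamini-Hochberg adjustment per comparison at 0.05. A difference carries its SE. Permutation tests used scipy 1.17.1. Correlation of arrays within a group was 0.991 to 0.997, and 3 arrays a group limit the precision.

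The members and lists were chosen with earlier results of these data known. The rule was to name all 10 genes in each comparison, and of the other pathway genes up to 4 with the smallest adjusted p; a member not given singly in a comparison did not pass in it. Of the 64 listed, 3 were too low to be tested and 6 lacked an unshared probe set. Alternatives were other filters, scalings, probe sets, priors and array sets, the replicate number as a block, and each array left out.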

Additional observations from a re-analysis of the deposited data

Results flagged for a closer look

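5 effects differed between 4 and 24 h by the test of the difference itself, all of them larger at 24 h. The HER2 siRNA effect on IRS2 was larger by 0.71 ± 0.15 (log2, adjusted p = 0.0110, limma). The estrogen effect on IRS1 in HER2 siRNA cells was larger by 1.14 ± 0.17 (adjusted p = 0.00172). The estrogen effect on IGFBP4 was larger by 0.87 ± 0.16 in HER2 siRNA cells (adjusted p = 0.00718) and by 0.71 ± 0.16 in control siRNA cells (adjusted p = 0.0212). The estrogen effect on IGFBP5 in control siRNA cells was larger by 0.95 ± 0.16 (adjusted p = 0.00410). The change for IRS1 passed on its brightest probe set alone (adjusted p = 0.146 and 0.126 on the others, over all probe sets). That for IGFBP5 passed on some of its other probe sets and not on others. The calls for IGFBP4 ended when only the groups compared were fitted (HER2 siRNA cells) or without any of 5 single arrays (control siRNA cells). The causes of these 5 differences were not tested.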

How the results depend on the processing

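Of 4560 member results with 1 array left out, 4496 stayed on their side of the threshold, 41 lost a call and 23 gained one. Differences that did not pass could still change sign, as that of IGFBP3 for HER2 siRNA with vehicle at 4 h did (-0.17 to 0.56). For each comparison all 24 arrays were left out in turn, those outside the groups compared included. The siRNA calls of INSR, IGF1R, IRS2 and PIK3IP1, averaged and in each condition, held under every single array left out. With the GAPDH covariate 5 members were called for the averaged siRNA effect, against 8, and IRS1 turned to -0.01. The second brightest probe set left 1 member called for estrogen at 4 h with control siRNA (2 in the main analysis), 1 for the change of the estrogen effect with time in HER2 siRNA cells (2), 1 in control siRNA cells (2), 2 for time with control siRNA and estrogen (4) and 0 for time with HER2 siRNA and vehicle (2). Fitting only the groups compared gave 1 for estrogen at 4 h with HER2 siRNA (3), 1 and 4 for the change of the estrogen effect with time in HER2 and control siRNA cells, and 0 for time with HER2 siRNA and vehicle, with fewer arrays in the fit. For the change of the siRNA effect with time (1), a stricter filter, the replicate block and the intensity trend gave 3 each and the mean of probe sets 2. For that of the estrogen effect in control siRNA cells, a stricter filter, the block and the trend gave 5 each. Leaving out 1 array gave 1 to 3, 1 to 3, 2 to 5, 0 to 2 and 0 to 1 members for the change of the siRNA effect with time, the change of the estrogen effect with time in control siRNA cells, time with control siRNA and estrogen, time with HER2 siRNA and vehicle, and the averaged difference of estrogen effects. The HER2 siRNA minus control siRNA difference in RNA integrity was 0.233 by ACTB, against 0.138 by GAPDH. Unless stated, the cause was not tested.

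Same-numbered arrays deviated together in part (median r 0.205 over 84 pairs, against -0.107 over 168 differently numbered pairs). An r over 0.1 was reached by 60 of the 84 and by 26 of the 168. All 3 pairs were over 0.1 in 8 of 28 pairs of groups, so the numbers were not taken to pair the arrays, and the block is given as an alternative. With the replicate block 181 of 190 member results were unchanged in call, 9 gained a call and 0 lost one, IGFBP3 among them (0.40 ± 0.13, adjusted p = 0.00983). Over all genes, counts moved beyond 1.5 times with the setting: estrogen with HER2 siRNA 458 to 1251 at 24 h (885) and 28 to 153 at 4 h (100); estrogen with control siRNA 1154 to 2561 at 24 h (1939) and 29 to 76 at 4 h (49). The difference of estrogen effects gave 4 to 34 at 24 h (9) and 4 to 14 averaged (6). The siRNA effect's change with time gave 276 to 829 (423), and that of the estrogen effect 20 to 198 with HER2 siRNA (74) and 77 to 450 with control siRNA (183). Time itself gave 379 to 1514 (890) and 52 to 1670 (926) with HER2 siRNA, and 373 to 1437 (855) and 43 to 448 (112) with control siRNA, for estrogen and vehicle. Leaving out 1 array, not part of those ranges, moved the counts over all genes by over 1.5 times for time with HER2 siRNA (down to 421 with estrogen, without estrogen 24 h replicate 3, and 208 with vehicle, without vehicle 4 h replicate 1) and with control siRNA (down to 292 with estrogen, without estrogen 24 h replicate 3, and 6 with vehicle, without vehicle 24 h replicate 3). The lowest counts for the other comparisons so moved were 550 and 64 for estrogen with HER2 siRNA at 24 and 4 h, 27 for estrogen with control siRNA at 4 h, 5 for the difference of estrogen effects at 24 h (highest 17), 260 for the change of the siRNA effect with time, and 37 and 87 for that of the estrogen effect with HER2 and control siRNA. The low of 5 came without HER2 siRNA estrogen 24 h replicate 2, the 27 without control siRNA estrogen 4 h replicate 3, the 64 without HER2 siRNA estrogen 4 h replicate 3, the 87 without control siRNA estrogen 24 h replicate 3, and the 550, 260 and 37 without HER2 siRNA estrogen 24 h replicate 3.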

Other observations

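Over the 8 group means, the genes most like each member by Pearson r are given as a description, since the groups share a design and 14335 genes were searched. PIK3IP1 was most like FBXO32 (0.999), a ubiquitin ligase subunit induced in muscle atrophy, and INSR most like YPEL3 (0.998) and ABTB1 (0.998). IRS2 was most like KLHDC3 (0.997) and ANKRD49 (0.997), whose averaged HER2 siRNA differences of 0.69 and 0.33 were smaller than the 2.29 of IRS2. IGFBP5 was most like PGR (0.989), the progesterone receptor, and IGFBP4 most like TNS1 (0.987). IRS1 was most like HSPB8 (0.978), with DEPTOR next (0.968), and IGF1R most like RPS23 (0.991). PIK3R1 was most like ITPK1 (0.973), IGFBP3 like MAP3K13 (0.983) and IGFBP2 like NUDCD2 (0.953).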
